A study of Mus musculus with 22 samples.

Results

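The 9 genes described here encode the amyloid precursor family and the main proteases that cut it: *App*, its relatives *Aplp1* and *Aplp2*, the secretases *Bace1*, *Bace2* and *Adam10*, and the gamma-secretase subunits *Psen2*, *Ncstn* and *Psenen*. They were taken by symbol from a table of read counts for 55385 genes, and all 9 passed the filter on low counts in every comparison. *App* and *Bace2* lie in the mouse chromosome 16 (Mmu16) segment that is triplicated in Ts66Yah mice, and the other 7 do not. The data are RNA-Seq counts from the hippocampus (HIP) and entorhinal cortex (EC) of 11 male mice aged 5 to 6 months, with both regions taken from each mouse. The groups were 5 wt and 6 Ts66Yah mice in HIP and the same mice in EC, which gave 22 libraries of 25.9 to 50.1 M counted reads. Ts66Yah is a partial trisomy model of Down syndrome: the mice carry a minichromosome, made by CRISPR/Cas9 from that of the Ts65Dn line, that holds the distal end of Mmu16, *Mir155* onwards, without the centromeric part of Mmu17. All mice, wt littermates included, were on an F1 B6C3B background. Every Ts66Yah animal carries a copy of the same engineered chromosome, so 1 line stands for the genotype.

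App is a membrane protein that is cut in 2 competing ways. Cleavage by Adam10 within the amyloid beta stretch sheds a soluble fragment, whereas cleavage by Bace1 at the start of that stretch leaves a membrane stub that gamma-secretase trims to release amyloid beta. Gamma-secretase is a complex of a presenilin such as Psen2 (the catalytic subunit), nicastrin (Ncstn), an Aph1 protein and Pen-2 (Psenen). Bace2, the closest relative of Bace1, can also cut App, including within the amyloid beta stretch. Aplp1 and Aplp2 are processed by the same enzymes but hold no amyloid beta sequence. In people, *APP* and *BACE2* are on chromosome 21, and the extra *APP* copy of trisomy 21 is a known cause of early amyloid deposition.

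The coding sequences below are shown because they mark what separates *App* from the relatives it was compared with. Each is the last 300 coding bases of the GENCODE transcript of that gene on GRCm38, 5′ to 3′ on the coding strand: 99 codons, which in *App* are the stub that beta-secretase leaves, and the stop codon. Capitals in *App* mark the 42 codons (126 bases) of amyloid beta.
App: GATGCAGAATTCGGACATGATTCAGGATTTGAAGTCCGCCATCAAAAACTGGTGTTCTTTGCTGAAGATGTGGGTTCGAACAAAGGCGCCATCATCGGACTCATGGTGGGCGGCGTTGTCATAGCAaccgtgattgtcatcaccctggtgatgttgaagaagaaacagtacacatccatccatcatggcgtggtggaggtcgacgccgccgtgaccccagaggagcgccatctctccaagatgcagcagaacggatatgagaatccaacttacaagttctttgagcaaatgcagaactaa
Aplp2: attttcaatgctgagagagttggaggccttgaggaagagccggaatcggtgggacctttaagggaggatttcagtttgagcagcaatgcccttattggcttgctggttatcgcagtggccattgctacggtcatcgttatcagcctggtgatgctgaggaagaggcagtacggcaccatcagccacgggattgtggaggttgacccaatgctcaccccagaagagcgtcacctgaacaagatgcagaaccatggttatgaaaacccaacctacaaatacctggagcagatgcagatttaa
Aplp1: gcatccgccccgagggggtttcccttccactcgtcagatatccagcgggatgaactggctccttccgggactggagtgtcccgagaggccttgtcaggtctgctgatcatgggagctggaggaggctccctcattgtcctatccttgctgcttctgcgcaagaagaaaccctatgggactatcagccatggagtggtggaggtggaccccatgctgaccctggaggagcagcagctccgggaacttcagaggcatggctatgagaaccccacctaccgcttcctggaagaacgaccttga
The *App* stretch comes from the minus strand of chr16:84955331-84965720, that of *Aplp2* from the minus strand of chr9:31150871-31152354, and that of *Aplp1* from the minus strand of chr7:30435293-30435802, introns between them left out. In a global alignment *Aplp2* matched 63 of the 126 amyloid beta bases (50%) and 125 of the remaining 174 (71.8%). *Aplp1* matched 58 of the 126 (46.0%) and 110 of the 174 (63.2%). Identity to *App* was thus lower in the amyloid beta part, which reaches into the transmembrane stretch, than in the bases that follow it for both relatives.

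*App* spans chr16:84949685-85173766 on the minus strand and starts 236 kb into the triplicated segment. It was among the most abundant messages of both regions. CPM are counts scaled to a common library size. Divided by transcript length in kb, which allows levels of different genes to be compared, wt *App* stood at 641 ± 29.1 CPM per kb in HIP (SD, n = 5) and ranked 32nd of 21897 protein-coding genes. In Ts66Yah HIP it stood at 977 ± 32.6 CPM per kb (n = 6) and ranked 16th. The ranks in EC were 28 in wt and 11 in Ts66Yah. *App* reads made up 0.210% of all counted reads in wt HIP and 0.318% in Ts66Yah HIP, and 0.240% and 0.356% in EC.

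By library, *App* measured 2037, 1951, 2190, 1981 and 2024 CPM in the 5 wt HIP samples. In the 6 Ts66Yah HIP samples it measured 3166, 3200, 3116, 2996, 2953 and 3181 CPM. Every Ts66Yah HIP library was above every wt HIP library. Mean *App* was 2037 ± 92.3 CPM in wt and 3102 ± 103 CPM in Ts66Yah, 1.52-fold higher (95% confidence interval 1.42 to 1.64) or 0.61 on the log2 scale (SE 0.048). The adjusted p was 1.22e-05 by the quasi-likelihood test of edgeR, adjusted by Benjamini-Hochberg over 18452 genes. In bulk tissue such as this, a change in the number of cells of a type and a change in RNA per cell cannot be told apart.

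In EC, *App* measured 2412, 2577, 2568, 2469 and 2278 CPM in wt and 3788, 3651, 3669, 3415, 3729 and 3757 CPM in Ts66Yah. The groups again did not overlap. Mean *App* was 2461 ± 124 CPM in wt and 3668 ± 134 CPM in Ts66Yah, 1.49-fold higher (1.38 to 1.61) or 0.57 on the log2 scale (SE 0.053, edgeR adjusted p = 0.000198, 17658 genes tested). The order of the 4 groups was wt HIP, wt EC, Ts66Yah HIP and Ts66Yah EC, and no neighbours in that order overlapped: the highest wt HIP library was at 2190 CPM and the lowest wt EC library at 2278, the highest wt EC library was at 2577 and the lowest Ts66Yah HIP library at 2953, and the highest Ts66Yah HIP library was at 3200 and the lowest Ts66Yah EC library at 3415. Among all genes tested, 0.591% passed the threshold in HIP (0.439% higher and 0.152% lower) and 0.283% in EC (0.272% higher and 0.0113% lower).

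**Figure D1:**
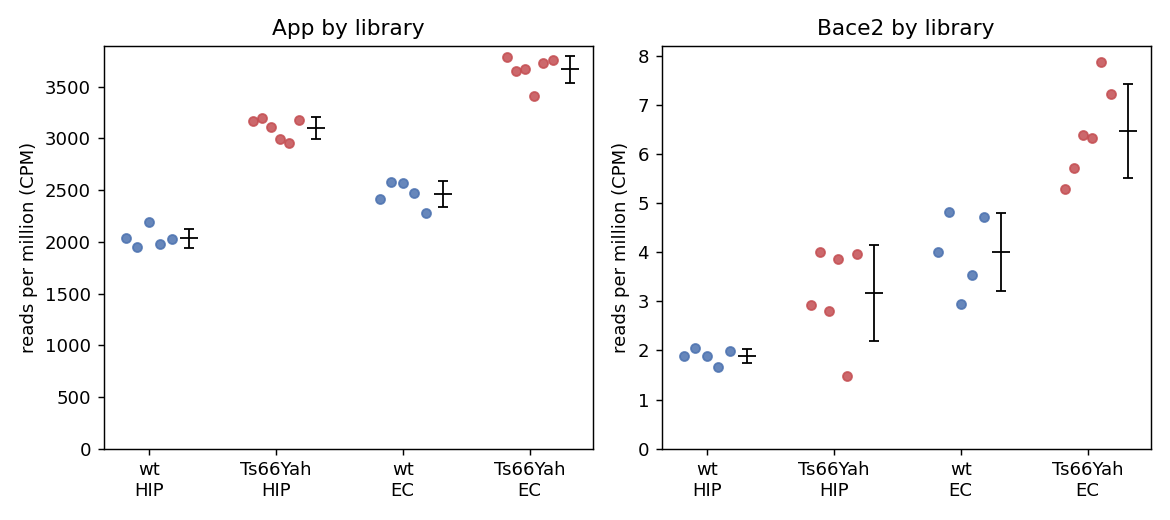
CPM (y axis, from 0) of *App* and *Bace2* in each library of the 4 groups (x axis); points are libraries and the bars at their right are the mean ± SD. All Ts66Yah *App* points lie above the wt points of their region, whereas for *Bace2* 1 Ts66Yah HIP library (1.47 CPM) lies below the wt HIP libraries.

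*Bace2* spans chr16:97356742-97442936 on the plus strand, near the distal end of the segment. Per kb of transcript it was by far the least abundant of the 9 genes. In CPM it was not: in Ts66Yah EC mean *Bace2* was 6.47 and mean *Psenen* 4.60, and in wt EC 4.01 and 4.90. As a gene per kb of transcript, *Bace2* was compared with *Bace1*. *Bace2* stood at 0.248 ± 0.019 CPM per kb in wt HIP and at 0.524 ± 0.104 in wt EC, against 17.2 ± 0.550 and 18.1 ± 0.459 CPM per kb for *Bace1*. Its counts ran from 44 to 242 reads per library, so that counting alone gave a coefficient of variation of up to 15.1% in a library.

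In HIP, *Bace2* measured 1.90, 2.04, 1.88, 1.66 and 1.99 CPM in wt. In Ts66Yah HIP it measured 2.92, 4.0, 2.81, 3.85, 1.47 and 3.96 CPM. Of the 6 Ts66Yah libraries 5 were above every wt library and replicate 5 was below every wt library. The means were 1.89 ± 0.146 and 3.17 ± 0.985 CPM, a ratio of 1.67 (1.21 to 2.30) or 0.74 on the log2 scale (SE 0.214). That difference did not pass the threshold (edgeR adjusted p = 0.18, unadjusted p = 0.00409). Of 11 fits that each left out 1 library, 1 passed, the fit without Ts66Yah HIP replicate 5. Without that library the log2 fold change was 0.89 with an edgeR adjusted p of 0.00822.

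That library held 52 *Bace2* reads, and the exact Poisson interval of its level was 1.10 to 1.93 CPM, which covers counting error only. In the same library *App* was at 2953 CPM, within the Ts66Yah range, and the median of all tested segment genes was 1.53-fold above the wt mean, against 1.46- to 1.53-fold in the 6 Ts66Yah HIP libraries. The 5 listed neighbours of *Bace2* that passed the threshold in HIP were all above their wt range there: *Dscam*, a neuronal adhesion molecule, was at 123 CPM (wt range 71.5 to 82.4), *Prdm15*, a zinc finger protein gene, at 23.4 (wt 15.5 to 17.3), *C2cd2* at 22.9 (wt 12.5 to 16.5), *Brwd1*, a bromodomain protein gene, at 177 (wt 105 to 116), and *Zbtb21*, another zinc finger protein gene, at 29.7 (wt 17.0 to 18.9). That test included this library. Of the tested neighbours that did not pass, *Pcp4* was within its wt range there (47.0 CPM, wt 27.8 to 52.3). *Mx1* was just above its wt range (0.283, wt 0.0784 to 0.280). *Ripk4* (3.37, wt 0.723 to 1.63) and *Mx2* (1.13, wt 0.451 to 0.793) were above theirs. The EC library of the same mouse had the highest *Bace2* level of all 22 libraries, 7.88 CPM. Among the cell type marker lists, 2 of 9 were lower in this library than in any other HIP library: the neuronal list summed to 6489 CPM (6589 to 7296 in the others) and the erythroid list to 84.4 CPM (119 to 224). The meningeal list was at 48.0 CPM (35.4 to 130) and the choroid plexus list at 2090 CPM (114 to 3344). Their part in the *Bace2* value was not tested.

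In EC, *Bace2* measured 4.01, 4.82, 2.95, 3.53 and 4.73 CPM in wt and 5.30, 5.71, 6.40, 6.32, 7.88 and 7.22 CPM in Ts66Yah. Here the groups did not overlap. The means were 4.01 ± 0.795 and 6.47 ± 0.953 CPM, a ratio of 1.61 (1.30 to 2.01) or 0.69 on the log2 scale (SE 0.146), which did not pass the threshold after adjustment (edgeR adjusted p = 0.106, unadjusted p = 0.00039). Of 8 other settings, 1 passed in each region: with DESeq2 the adjusted p was 0.0474 in HIP and 0.00201 in EC. With limma voom the adjusted p was 0.303 in HIP and 0.0882 in EC. In order of level, *Bace2* ran wt HIP, Ts66Yah HIP, wt EC and Ts66Yah EC, and the 2 groups in the middle overlapped (1.47 to 4.0 CPM against 2.95 to 4.82).

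A gene with 3 copies against 2 would give 1.5-fold, a log2 value of 0.585, so each gene was also tested against that ratio in place of no change. *App* departed from it by a log2 difference of 0.022 in HIP and -0.010 in EC (edgeR adjusted p = 0.811 and 0.94 over the segment genes tested). *Bace2* departed by 0.15 in HIP and 0.11 in EC (edgeR adjusted p = 0.761 and 0.872). These 2 values moved with single libraries, from 0.080 (without Ts66Yah HIP replicate 2) to 0.30 (without replicate 5) in HIP and from 0.019 (without wt EC replicate 3) to 0.18 (without wt EC replicate 2) in EC. Neither departure passed the threshold, and the 95% intervals of the folds given above bound how far each could be from 1.5. Of the tested segment genes, 5.94% departed from 1.5-fold in HIP (6 of 101) and 1.08% in EC (1 of 93), while 57.4% in HIP and 48.4% in EC differed from no change.

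Within the segment, *App* stood near the middle. The median of the tested segment genes was 1.501-fold in HIP and 1.489-fold in EC, and *App* ranked 32nd of 80 segment genes with at least 1 CPM by log2 fold change in HIP and 40th of 75 in EC. Its error was among the smallest: its SE ranked 8th of 80 in HIP and was the lowest of 75 in EC. *Bace2* ranked 8th and 14th by log2 fold change, with SEs that ranked 76th of 80 and 61st of 75.

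**Figure D2:**
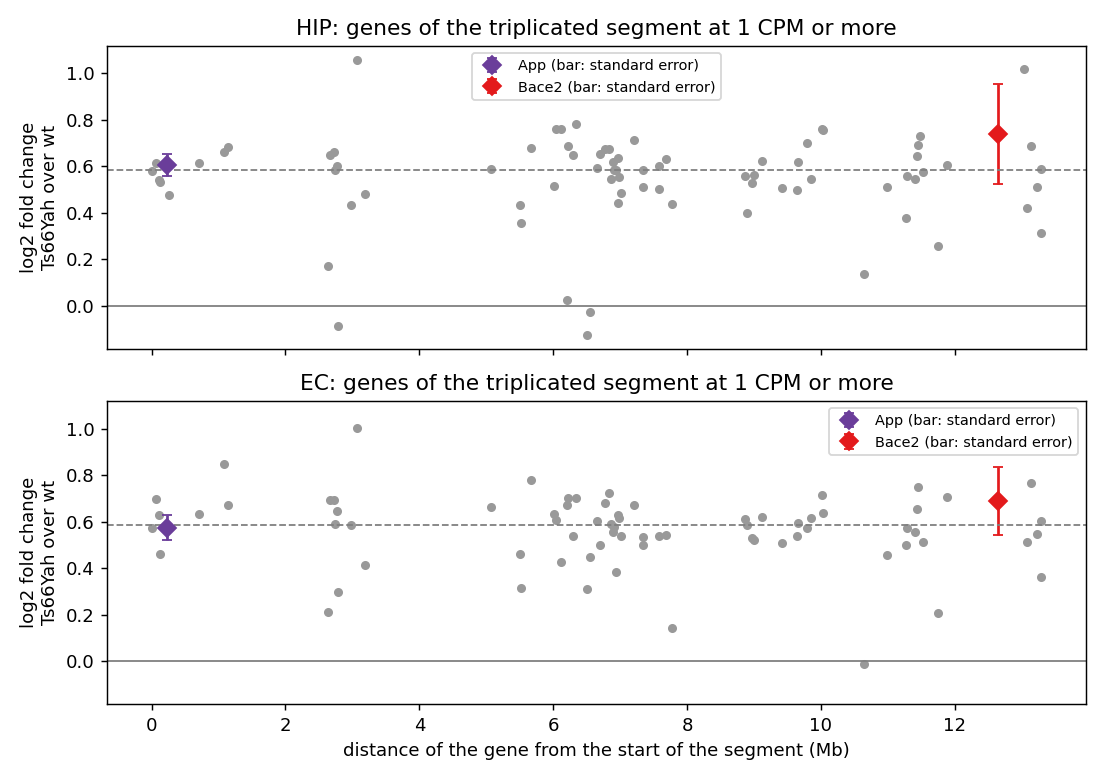
Log2 fold change of Ts66Yah over wt (y axis) for segment genes with at least 1 CPM against the distance of the gene from the start of the segment in Mb (x axis), in HIP (80 genes) and EC (75 genes); the dashed line is 1.5-fold and the bars of *App* and *Bace2* are standard errors. *App* lies close to the dashed line near the proximal end in both regions, and *Bace2* above it near the distal end with a wider error.

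The neighbours of both genes on the chromosome were described from 2 lists. Of the 7 listed neighbours of *App*, 6 were higher in Ts66Yah HIP and 5 in Ts66Yah EC, with log2 fold changes of 0.53 to 0.68 in HIP and 0.46 to 0.85 in EC. The junctional adhesion gene *Jam2* had log2 fold changes of 0.62 and 0.70 (edgeR adjusted p = 3.86e-05 and 9.08e-05), and the mitochondrial ribosomal gene *Mrpl39* of 0.58 and 0.57 (1.53e-05 and 0.000224). The 1 not called in HIP was *Adamts5*, a matrix protease (0.68, edgeR adjusted p = 0.0611), and those not called in EC were *Adamts5* (0.67, 0.108) and *Gabpa*, a transcription factor gene (0.46, 0.0603). Of the 11 listed neighbours of *Bace2*, 9 were tested in HIP and 8 in EC, and 5 were higher in each region: *Brwd1*, *Dscam*, *Prdm15*, *C2cd2* and *Zbtb21*, with log2 fold changes of 0.42 to 0.69 in HIP and 0.51 to 0.77 in EC. *Pcp4*, a calmodulin-binding protein gene, had log2 fold changes of 0.26 in HIP and 0.21 in EC and did not pass the threshold (edgeR adjusted p = 0.496 and 0.889). The other uncalled neighbours, all at low levels, had larger estimates: the kinase gene *Ripk4* 1.02 in HIP (SE 0.286, edgeR adjusted p = 0.164) and 1.26 in EC (SE 0.327, 0.28), the interferon-induced genes *Mx2* 0.71 (SE 0.223, 0.22) and 1.57 (SE 0.566, 0.646) and *Mx1* 0.98 in HIP (SE 0.345, 0.264).

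The other family members, *Aplp1* and *Aplp2*, are abundant relatives of *App* on chromosomes 7 and 9. *Aplp1* ranged from 1217 to 1396 CPM in wt HIP and from 1161 to 1317 in Ts66Yah HIP, and from 1374 to 1722 and 1400 to 1630 CPM in EC. Its log2 fold change was -0.026 in HIP (95% interval -0.13 to 0.081) and -0.045 in EC (-0.20 to 0.11). *Aplp2* ranged from 530 to 622 CPM in wt HIP and 534 to 590 in Ts66Yah HIP, and from 683 to 795 and 668 to 747 CPM in EC, with log2 fold changes of -0.010 (-0.12 to 0.10) and -0.029 (-0.14 to 0.086). The groups overlapped for both genes in both regions, and each interval lay below a 1.5-fold rise.

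*Bace1*, the main beta-secretase gene, was at 104 ± 3.33 CPM in wt HIP and 101 ± 3.10 in Ts66Yah HIP, and at 109 ± 2.78 and 111 ± 11.0 CPM in EC. Its log2 fold change was -0.038 in HIP (-0.12 to 0.043) and 0.012 in EC (-0.13 to 0.16). *Adam10*, the main alpha-secretase gene, was at 101 ± 3.06 and 102 ± 4.55 CPM in HIP and at 113 ± 10.3 and 116 ± 10.8 in EC, with log2 fold changes of 0.0030 (-0.087 to 0.093) and 0.033 (-0.13 to 0.20).

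Among the gamma-secretase subunits, *Ncstn* was at 56.9 ± 5.51 and 59.8 ± 2.72 CPM in wt and Ts66Yah HIP (log2 fold change 0.072, -0.058 to 0.20) and at 66.9 ± 7.37 and 68.7 ± 2.91 in EC (0.037, -0.12 to 0.19). *Psen2* was at 15 ± 1.503 and 14.2 ± 0.899 CPM in HIP (-0.082, -0.24 to 0.079) and at 14.4 ± 0.895 and 13.7 ± 1.66 in EC (-0.071, -0.27 to 0.13). *Psenen* had the widest intervals, with 3.88 ± 0.728 and 3.90 ± 0.235 CPM in HIP (0.015, -0.25 to 0.28) and 4.90 ± 0.741 and 4.60 ± 0.785 in EC (-0.094, -0.40 to 0.21). Wt and Ts66Yah libraries overlapped for all 3 in both regions.

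None of the 7 genes outside the segment passed the threshold in either region. By edgeR, limma voom or DESeq2 0 of 7 were called, beside 0.591% of all genes in HIP and 0.283% in EC by edgeR. An unadjusted edgeR p under 0.05 was reached by 0 of 7 (lowest 0.253 in HIP and 0.462 in EC), against 11.9% of all genes in HIP and 6.25% in EC. The edgeR adjusted p-values ran from 0.691 to 0.99 in HIP and from 0.975 to 0.995 in EC. A p that misses the threshold does not show equal expression, and the intervals above give the sizes of change that the data leave possible. The upper bounds of all 7 were below the log2 of 1.5 in both regions.

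**Figure D3:**
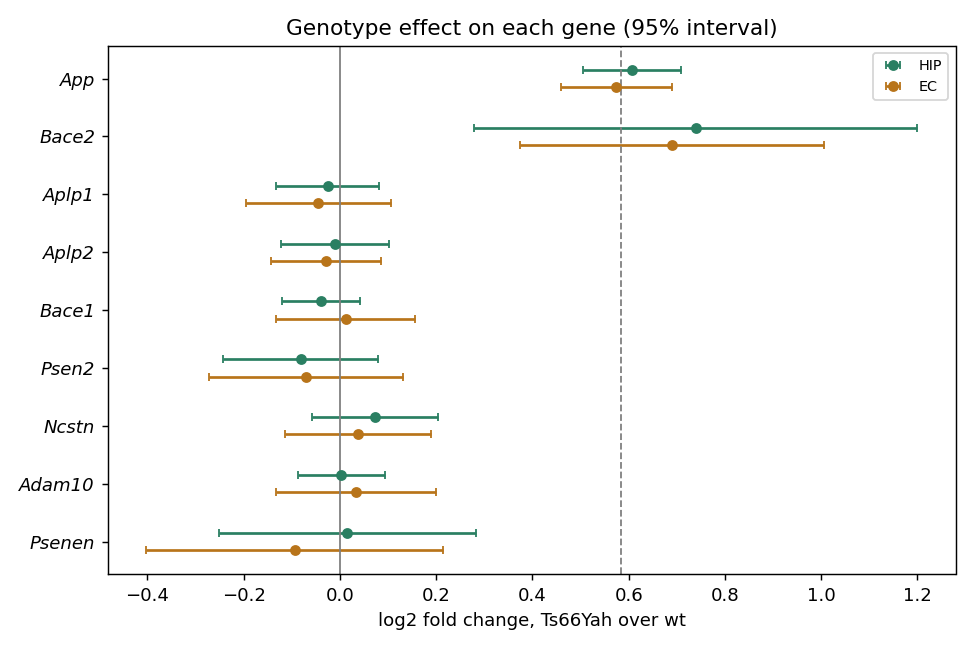
Log2 fold change of Ts66Yah over wt (x axis) with its 95% interval for the 9 genes (y axis) in HIP and EC; the solid line is no change and the dashed line 1.5-fold. *App* and *Bace2* are the genes with intervals that contain the dashed line, and the intervals of the other 7 contain no change.

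Expressed per length, the 9 genes fell into separate ranges of level. *App* was highest, with *Aplp1* next (553 ± 30.0 CPM per kb in wt HIP); the libraries of these 2 overlapped in wt EC and in no other group. *Aplp2* was lower (155 ± 11.0), and the enzymes were lower again: *Adam10* at 22.1 ± 0.666, *Ncstn* at 19.6 ± 1.90 and *Bace1* at 17.2 ± 0.550 CPM per kb. *Adam10* and *Ncstn* overlapped in all 4 groups, and *Ncstn* and *Bace1* in none. *Psen2* (7.43 ± 0.744) and *Psenen* (5.48 ± 1.03) stood lower still and overlapped in EC but not in HIP. These levels use the length of the longest principal transcript of each gene, and parts of the order rest on it. Per kb of all annotated exons, wt HIP *App* was at 157 ± 7.11 and *Aplp1* at 430 ± 23.3, and *Aplp1* was above *App* in all 4 groups. By that length mean *Bace1* was above mean *Ncstn* in all 4 groups (16.4 against 14.3 in wt HIP). Mean *Psenen* was above mean *Psen2* in EC (3.84 against 3.32 in wt) but not in HIP.

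**Figure D4:**
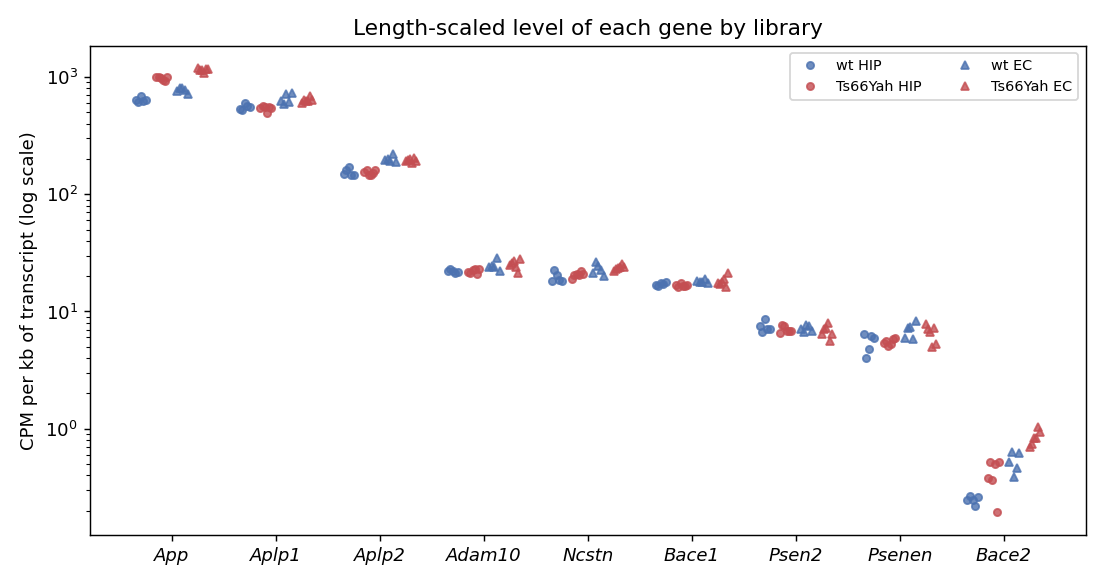
CPM per kb of transcript (y axis, log scale) of the 9 genes in each library, ordered by their mean in wt HIP (x axis); circles are HIP, triangles EC, and colours the genotype. The family genes *App*, *Aplp1* and *Aplp2* lie above 100 CPM per kb and *Bace2* near or below 1.

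Ratios within a library do not depend on scaling between libraries. The ratio of *App* reads to the sum of *Aplp1* and *Aplp2* reads was 1.07 to 1.14 in wt HIP and 1.59 to 1.77 in Ts66Yah HIP, and 0.947 to 1.22 and 1.57 to 1.80 in EC. The groups did not overlap in either region. The ratio was 1.55-fold higher in Ts66Yah HIP and 1.53-fold higher in Ts66Yah EC (two-sided exact permutation of the 11 genotype labels, p = 0.00216 in each region, which is the smallest this design allows, and 0.00289 after Benjamini-Hochberg adjustment over 4 ratio tests). Per kb, *App* made up 47.5% ± 0.630 of the family's transcripts in wt HIP and 58.3% ± 0.916 in Ts66Yah HIP, and 47.6% ± 2.55 and 58.1% ± 1.30 in EC. A 1.5-fold *App* level with *Aplp1* and *Aplp2* held at their wt level would give 57.6% in both regions. The share itself depends on the lengths used: per kb of all annotated exons it was 23.0% ± 0.467 in wt HIP and 31.6% ± 0.8291 in Ts66Yah HIP, and 23.1% ± 1.89 and 31.5% ± 1.18 in EC.

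The 2 beta-secretase relatives were compared in the same way. There were 1.58 to 2.04 *Bace2* reads per 100 *Bace1* reads in wt HIP and 1.47 to 4.11 in Ts66Yah HIP, where replicate 5 again gave the lowest value. In EC there were 2.72 to 4.47 in wt and 4.96 to 8.09 in Ts66Yah, without overlap. The ratio was 1.63-fold higher in Ts66Yah HIP (two-sided exact permutation test, p = 0.0303, adjusted p = 0.0303) and 1.62-fold higher in Ts66Yah EC (exact permutation test, p = 0.00216, adjusted p = 0.00289). The HIP value missed the threshold without wt HIP replicate 3 (exact permutation p = 0.0524) or without wt HIP replicate 4 (p = 0.0619).

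The genotype effect was then compared between regions with an interaction term over all 22 libraries, in a fit without a term for the mouse. Of the 9 genes 0 passed the threshold, and 0 had an unadjusted p under 0.05. Of all 19074 genes tested 0% were called by edgeR with either scaling or by limma voom, and 388 had an unadjusted edgeR p under 0.05. For *App* the genotype effect in EC minus that in HIP was -0.031 on the log2 scale (95% interval -0.17 to 0.10). For *Bace2* it was -0.047 (-0.60 to 0.50), a wide interval beside *Bace2* genotype effects of 0.74 in HIP and 0.69 in EC. The adjusted p was 1 for all 9 genes in edgeR.

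Of the 9 genes, 5 were higher in EC than in HIP in both genotypes, in fits without a term for the mouse. *Bace2* differed most, with 2.11-fold more in EC of wt mice (1.08 on the log2 scale, SE 0.152, edgeR adjusted p = 8.05e-05) and 2.03-fold more in EC of Ts66Yah mice (1.02, SE 0.195, edgeR adjusted p = 0.000478), and no HIP library reached an EC library of the same genotype. *Aplp2* was 1.29- and 1.27-fold higher (edgeR adjusted p = 0.000396 in wt and 9.01e-06 in Ts66Yah) and *App* 1.21- and 1.18-fold higher (0.00131 and 0.000362), in both cases without overlap. *Aplp1* was 1.19- and 1.17-fold higher (0.0147 and 0.00103) and *Ncstn* 1.18- and 1.14-fold higher (0.0386 and 0.00182), and both overlapped in wt but not in Ts66Yah. In the background, 23.4% of all genes were higher in EC and 24.3% lower in wt, and 26.4% were higher and 27.5% lower in Ts66Yah.

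*Adam10* was 1.14-fold higher in EC of Ts66Yah mice (edgeR adjusted p = 0.0161) and 1.12-fold in wt, where it missed the threshold (0.0547; with DESeq2 the adjusted p was 0.0472). *Psenen* was 1.27-fold (edgeR adjusted p = 0.0836) and 1.17-fold (0.107), *Bace1* 1.05-fold (0.209) and 1.09-fold (0.0959), and *Psen2* 0.961-fold (0.608) and 0.964-fold (0.613), none of them past the threshold. The calls that turned on 1 mouse were these. In wt, *Ncstn* was lost without replicate 1, 3 or 4 (edgeR adjusted p up to 0.101), and also with no filter on low counts (0.0526), and *Aplp1* without replicate 5 (0.0571). In Ts66Yah, *Adam10* was lost without replicate 1 or 2 (up to 0.0572), and *Bace1* was gained without replicate 5 (edgeR adjusted p = 0.0417).

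**Figure D5:**
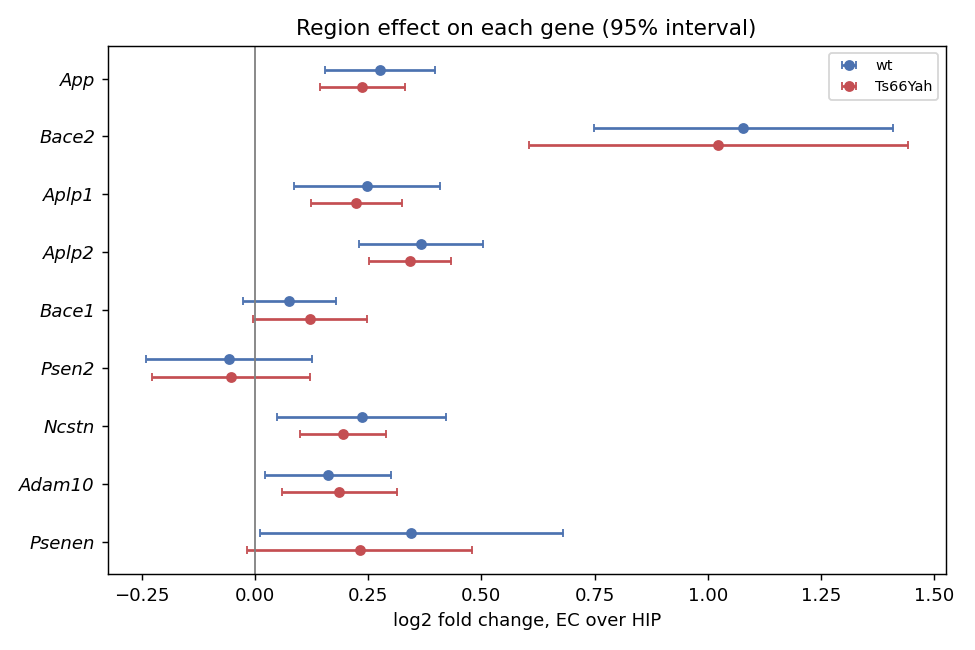
Log2 fold change of EC over HIP (x axis) with its 95% interval for the 9 genes (y axis) in wt and Ts66Yah mice; the line is no change. *Bace2* lies near 1 on the log2 scale in both genotypes, the 3 family genes and *Ncstn* lie between 0.19 and 0.37, and *Psen2* lies just below 0.

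The regions also differed in their markers of cell types. All 6 mature oligodendrocyte markers were lower in EC of wt mice, and their summed level was 7232 to 10530 CPM in wt HIP and 1410 to 3501 in wt EC. The neuronal list summed to 6696 to 7215 CPM in wt HIP and 8331 to 9216 in wt EC, with 4 of 6 genes higher in EC. All 7 choroid plexus markers were lower in EC, with a sum of 114 to 3344 CPM in wt HIP and 11.2 to 45.4 in wt EC. The part of these shifts in the region effects was not tested. Between genotypes, 0 of the 50 marker genes passed the threshold in either region. *Olig2* and *Clic6* among them lie in the triplicated segment, so a missed call does not show unchanged cell numbers for them. In HIP *Olig2* had a log2 fold change of -0.13 and departed from 1.5-fold (edgeR adjusted p = 4.76e-05). In EC *Olig2* did not depart (0.351), nor did *Clic6* in HIP (0.891) or EC (0.655). *Otx2*, a choroid plexus marker, was at 0.179 CPM in wt EC and may have been below the filter. The defining neuronal, astrocyte and oligodendrocyte markers each averaged above 22 CPM in every group.

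The genes whose pattern over the 22 libraries was nearest to that of *App* were all in the segment. They were *Rcan1*, a calcineurin regulator, *Wrb*, a receptor for tail-anchored protein insertion, and *Gart*, a purine synthesis enzyme, with root mean square differences in centred log2 CPM of 0.085, 0.090 and 0.092. The median over 14924 candidate genes was 0.399, and the spread of *App* itself was 0.326. For *Bace2* the nearest genes were *Lama4*, a laminin chain, *Npy*, the neuropeptide Y gene, and *Fam196a*, none of them in the segment, at 0.355, 0.363 and 0.375 against a median of 0.723 and a spread of 0.699 for *Bace2* itself.

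The wider amyloid pathway was described with 6 lists of 75 genes in all. In HIP 0 of 75 passed the edgeR threshold, beside 0.591% of all genes, and 12 had an unadjusted p under 0.05, beside 11.9% of all genes. In EC 1 of 74 tested passed, beside 0.283%, and 3 had an unadjusted p under 0.05, beside 6.25%. The median log2 fold change of the lists together was 0.0078 in HIP and 0.0043 in EC, beside 0.000014 and -0.0045 over all genes.

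Among the other secretase genes, 0 of 6 passed in either region. *Aph1a*, a scaffold subunit of gamma-secretase, had log2 fold changes of -0.14 in HIP and -0.12 in EC (edgeR adjusted p = 0.358 and 0.947). Of the 16 App adaptors and modulators 0 passed. The adaptor genes *Apbb3* (-0.29, edgeR adjusted p = 0.0611) and *Apba3* (-0.28, 0.17) had the largest differences in HIP, and *Gsap*, a gamma-secretase activating protein gene, had the largest in EC (0.21, 0.918).

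Of the 14 genes for sorting and uptake of App and Bace1 0 passed. The sorting receptor gene *Sorl1* had log2 fold changes of 0.16 in HIP and 0.15 in EC (edgeR adjusted p = 0.324 and 0.872), and its relative *Sorcs1* of 0.24 in HIP (0.446). Of the 17 substrates of the secretases 0 passed, with the largest differences for *Notch3* in HIP (-0.14, edgeR adjusted p = 0.475) and *Notch2* in EC (-0.28, 0.818). Of the 12 amyloid beta degrading proteases 0 passed: *Mmp9*, a matrix metalloprotease, differed by -0.38 on the log2 scale in HIP (edgeR adjusted p = 0.45), *Thop1*, a metallopeptidase, of -0.25 in HIP (0.209) and -0.13 in EC (0.958), and *Ide*, the insulin degrading enzyme, of 0.15 and 0.14 (0.769 and 0.975).

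The gene called in the lists was *Trem2*, a microglial lipid receptor counted under amyloid beta binding and clearance. It fell in EC from 17.5 ± 3.82 CPM in wt to 10.8 ± 0.944 in Ts66Yah (-0.69 on the log2 scale, SE 0.130, edgeR adjusted p = 0.0444). In HIP it was at 14.3 ± 2.49 and 10.1 ± 1.04 CPM (-0.50, edgeR adjusted p = 0.0679). The HIP difference passed with DESeq2 (adjusted p = 0.00294), with no filter on low counts (edgeR adjusted p = 0.0415) and without wt HIP replicate 2 (0.038) or 4 (0.0432). The EC difference passed in 5 of 8 other settings. These were DESeq2 (adjusted p = 0.000191), RLE factors (edgeR adjusted p = 0.044), no filter on low counts (0.0173), a filter at 1 CPM (0.0441) and 1 fit of all 22 libraries (0.00527). The EC call was lost with limma voom (adjusted p = 0.0684), when mice were blocked by replicate number (edgeR adjusted p = 0.123) or by number range (0.236), and when a library was left out, except wt EC replicate 2 or 4 (edgeR adjusted p = 0.0228 to 0.184). The 6 microglial markers summed to 309 to 398 CPM in wt EC (median 380.7) and 304 to 369 in Ts66Yah EC (median 339.5), and 0 of 6 passed. Each of these markers had a lower mean in Ts66Yah than in wt in both regions. Their part in the *Trem2* difference was not tested. The other 8 genes tested of that list in EC did not pass, nor did any of the 10 in HIP, where *A2m*, a protease inhibitor gene, differed by 0.45 on the log2 scale (edgeR adjusted p = 0.495).

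Some members share their position with other genes. Of the 5 genes annotated inside *App* on the opposite strand, *Gm10791* reached the highest level, 2.67 CPM, and *Gm49227* (up to 0.742 CPM) shares 113 exon bases with *App*. *Bace1* shares 975 exon bases with *Rnf214* (up to 53.8 CPM), 951 with *Gm49338* (up to 8.41 CPM) and 135 with *Gm16536* (up to 11.8 CPM), all on the opposite strand. *Ncstn* shares 195 exon bases with *Copa* (up to 294 CPM), and *Psenen* shares 119 with *U2af1l4* and 111 with *Gm49396* (up to 2.69 CPM). The strand setting of the counting is not given in the sources used here, so reads over those bases are uncertain.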

How the data were processed

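RNA was extracted from HIP and EC of 5 wt and 6 Ts66Yah male mice, and libraries were made with a stranded kit (poly(A) selection per the labels; the study's methods also name a ribosomal depletion kit). The authors aligned single-end reads to GRCm38 with Hisat2 and deposited HTSeq-count raw counts for 55385 Ensembl 99 gene IDs, of which 55144 matched GENCODE M21, and columns of DESeq2 and FCROS comparisons that were not used here. Libraries held 25.9 to 50.1 M counted reads (median 34.7), and BCV was 0.132 in HIP and 0.164 in EC.

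From the counts, edgeR 4.0.16 (R 4.3.3) gave TMM factors, filterByExpr filtering and quasi-likelihood tests within each region, between regions within each genotype, and for the interaction, adjusted by Benjamini-Hochberg over every gene tested and a threshold of 0.05. SEs and 95% intervals are Wald values from those fits. CPM are scaled over all 22 libraries. The segment ran from *Mir155* to the end of chromosome 16 (84714140 to 98082450), and its genes were also tested against 1.5-fold with an offset. Log2 CPM for patterns used a prior count of 2. Ratios were tested by exact permutation. DESeq2 1.42.0, limma 3.58.1 voom, RLE factors, other filters, blocks and leaving out libraries were alternatives. Scripts were tested on simulated data, with a spread between libraries set below the BCV of these data. No duplicate libraries were found. Intervals cover counting error and spread between mice. The other members are named in full, listed genes where past the threshold and otherwise at most the 2 largest changes per list at 1 CPM or more (uncalled neighbours of *App* and *Bace2* were named after their values were seen), and for pattern the 3 nearest genes. The members and lists were chosen with earlier results of these data known. HIP and EC libraries of 1 mouse deviated together (r 0.215 to 0.538). Mouse served as a block between regions only as an alternative, and the printed region and interaction fits ignore this pairing. The values of 1 listed gene are not reported here.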

Additional observations from a re-analysis of the deposited data

Results flagged for a closer look

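In 2 of the 36 combinations of gene and group, 1 library stood apart from the rest of its group by Dixon's criterion, which chance gives in about 1 of 20. *App* was lowest in Ts66Yah EC replicate 4, at 3415 CPM, with a gap of 0.632 of the group's range; it was still above every wt EC library. *Aplp1* was lowest in Ts66Yah HIP replicate 4, at 1161 CPM, with a gap of 0.72 of the range. The *Bace2* value of Ts66Yah HIP replicate 5 was not flagged by this criterion. No gene was flagged for a genotype effect that differed between regions.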

How the results depend on the processing

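*App* kept its direction and its call in both regions under all 8 other settings and all 11 fits without 1 library (log2 fold change 0.59 to 0.64 in HIP and 0.55 to 0.60 in EC). With the replicate number as a block, the edgeR adjusted p for *App* was 0.00287 in HIP and 0.0127 in EC; same-numbered wt and Ts66Yah mice share only a number (r 0.0191 to 0.0663 in HIP and 0.0175 to 0.197 in EC), and no call on the 9 genes changed. Mouse as a block changed no call between regions. Of the 8 other settings, DESeq2 alone took *Bace2* past the threshold, in HIP (0.74) and EC (0.69). Directions that turned, all far from the threshold, were those of *Adam10* in HIP (-0.011) and *Bace1* in EC (-0.038) with the replicate block, of the *App* departure from 1.5-fold in EC (0.0053) with mice blocked by their number range, and of the *Bace2* interaction (0.040) with limma voom; the cause was not tested. Without 1 library, *Bace2* in HIP ranged from 0.67 to 0.89, the *Bace2* to *Bace1* ratio in HIP from 0.61 to 0.91, and the *App* departure in EC from -0.038 to 0.015. Small effects crossed 0 in the same fits: in HIP *Aplp1* (-0.047 to 0.0023), *Aplp2* (-0.031 to 0.027), *Adam10* (-0.0095 to 0.022) and *Psenen* (-0.078 to 0.080); in EC *Aplp1* (-0.083 to 0.0019), *Aplp2* (-0.050 to 0.013), *Ncstn* (-0.0084 to 0.093), *Adam10* (-0.00017 to 0.096) and *Bace1* (-0.036 to 0.047); and in the interaction *App* (-0.054 to 0.0048), *Bace2* (-0.26 to 0.061), *Aplp1* (-0.046 to 0.023), *Aplp2* (-0.065 to 0.041), *Psen2* (-0.051 to 0.054) and *Psenen* (-0.22 to 0.00996). The *Trem2* alternatives were chosen after seeing the data. *Bace2* rests on 44 to 242 reads per library.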
